A study of Mus musculus with 6 samples.

Results

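The Wnt ligands, receptors and modulators were described in kidney RNA of mice killed after 4 weeks. The members are the genes whose symbol starts with Wnt, Fzd, Sfrp, Dkk or Rspo and a digit, together with Lrp5, Lrp6, Axin1, Axin2, Lef1, Tcf7l1, Tcf7l2, Wif1, Apc, Znrf3, Rnf43, Lgr4 and Lgr5. There were 55 of them among 22180 tested genes, each read from 1 probe set. One of the 55, Fzd10os, is an RNA named for the strand opposite Fzd10 and not a receptor, and Tcf7 was not analysed here. 3 kidney samples were labelled Cre-positive and 3 were labelled Cre-negative, with 1 single-colour Affymetrix array for each. The labels name a conditional knockout line of Pals1, encoded by Mpp5, on a background they spell C56Bl/6, and Six2-Cre transgenic mice on a mixed background. Six2-Cre is active in nephron progenitors, whereas the collecting duct and the stroma descend from other cells. All 6 samples carry the label of a mixed background and had no special treatment. The number of conditional alleles in each group, and whether the Cre-negative mice carried any, are not stated in the labels. The series title speaks of haplo-insufficiency in nephrons. Mpp5 transcript itself stood at 8.10 ± 0.09 in Cre-positive and 8.71 ± 0.06 in Cre-negative arrays (SD, n = 3 each; limma adjusted p = 0.00232).

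Wnt proteins are secreted lipid-modified signals that bind Frizzled receptors and the co-receptors LRP5 and LRP6. Binding stops the Axin and APC complex from marking beta-catenin for destruction, and beta-catenin then enters the nucleus and acts with TCF/LEF factors on target genes. R-spondins strengthen the signal by removing the ubiquitin ligases ZNRF3 and RNF43 from the cell surface. Secreted frizzled-related proteins, several Dickkopf proteins and WIF1 dampen the signal. In the developing kidney Wnt9b and Wnt4 drive formation of the nephron, Wnt11 acts at ureteric tips and Wnt7b in the collecting duct.

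Values are deposited log2 RMA values, and differences are log2 differences, Cre-positive minus Cre-negative, ± SE from limma with n = 3 per group. A gene was called at a limma p, adjusted by Benjamini-Hochberg over all tested genes, under 0.05. Nothing in the labels ties the samples to separate mice, so each p-value covers the spread among these 6 samples, which may be in part technical. 2 of the 3 Cre-negative arrays (replicates 1 and 2), and none of the Cre-positive ones, carried Xist (10.76 and 10.70, against 4.00 to 4.29 in the other 4 arrays), so the groups were not balanced for sex. The Cre-negative samples therefore did not all come from 1 mouse. Cre-negative replicate 2 carried adrenal transcripts, with a summed level of the 8 measured adrenal cortex markers of 12.78 against 7.52 to 7.66 in the other 5 arrays (log2 of the sum of linear levels). Skeletal muscle transcripts were present in Cre-positive replicate 2, where 9 markers summed to 10.48 against 8.39 to 9.04 elsewhere. Results resting on these arrays are given below with and without them.

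Of the 55 members, 5 rose and 3 fell in Cre-positive kidneys. These 8 are 14.5% of the members, where 21.8% of all tested genes were called (10.7% higher and 11.1% lower). The members that rose were Dkk3, Tcf7l1, Wnt9a, Fzd6 and Wnt10a, and those that fell were Dkk2, Sfrp2 and Wif1. The median difference over the members was 0.05, against -0.01 over all tested genes, and the median size of the difference was 0.17 and 0.16. The groups did not overlap for 17 members, or 30.9%, against 38.5% of all tested genes. Between Cre-positive arrays and the Cre-negative array without Xist, replicate 3, all 8 called members kept their direction, as did all 4844 called genes. The groups did not overlap for any of the 8, so their direction against a single Cre-negative array could not differ. In a limma fit that also held a factor for sex (the sex term), 2 of the 8 calls held, those of Dkk3 and Tcf7l1, where 9.15% of all tested genes were called. Since no Cre-positive array carried Xist, that fit sets the 3 Cre-positive arrays against 1 array, Cre-negative replicate 3, which is assumed to vary like the others. Its estimates equal the differences from that array. Without both replicates 2 the calls of Dkk3 and Wif1 held and the other 6 did not, where 8.35% of all tested genes were called.

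**Figure D1:**
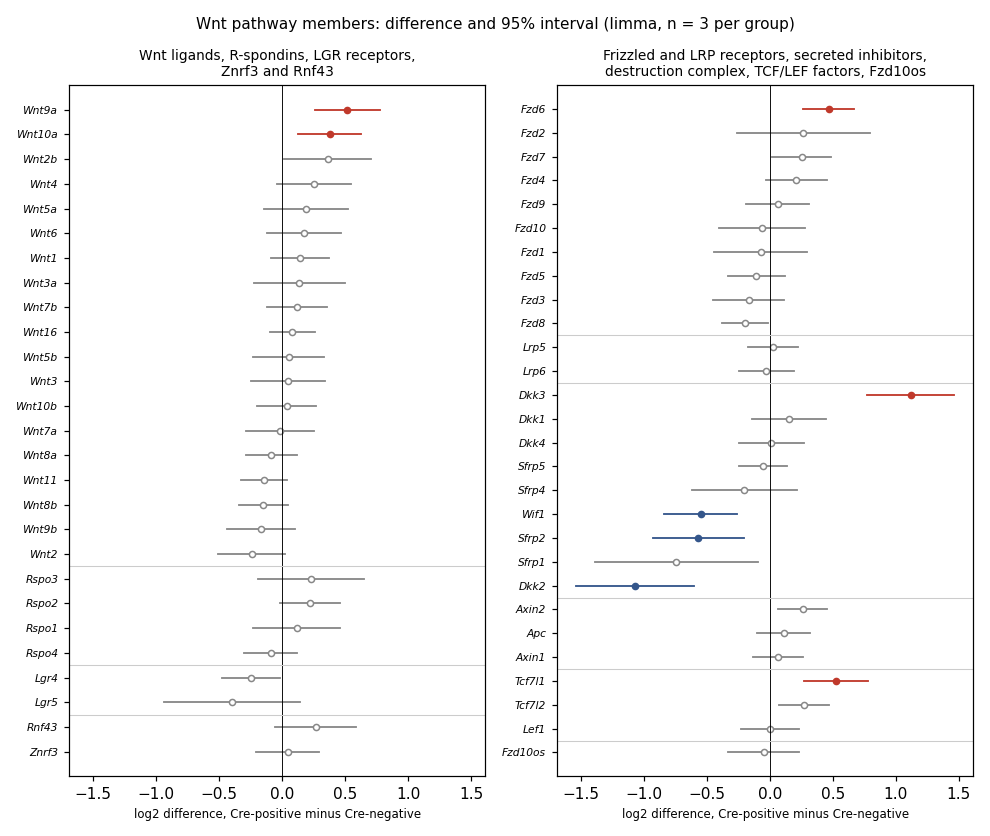
Log2 difference of each of the 55 members, Cre-positive minus Cre-negative, on the horizontal axis, with members grouped by role down the page. Points are limma estimates and lines their 95% intervals, n = 3 arrays per group; red marks members that rose, blue those that fell and open grey those that did not pass. Most members lie near 0, and the widest spread is among the 9 secreted inhibitors, between -1.07 for Dkk2 and 1.12 for Dkk3.

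The secreted inhibitors held 4 of the 8 calls: of 9 measured, 3 fell, 1 rose and 5 did not pass. The 4 calls are 44.4% of these few genes, against 21.8% of all tested genes. Dkk2 (probe set 17402698), a Dickkopf protein that binds LRP5 and LRP6, stood at 6.72, 6.92 and 7.58 in Cre-positive arrays, against 8.16, 8.09 and 8.19 in Cre-negative arrays. The groups did not overlap, and Cre-positive replicate 3 came closest to them. The difference was -1.07 ± 0.20 (limma adjusted p = 0.00771), so that the Cre-negative level was 2.10 times the Cre-positive level, and it was -1.12 against Cre-negative replicate 3. The call was lost with the sex term (limma adjusted p = 0.0701) and without both replicates 2 (limma adjusted p = 0.0854), with differences of -1.12 and -1.02.

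Sfrp2 (probe set 17398557), a secreted frizzled-related protein that binds Wnts, stood at 6.59, 6.91 and 7.22 in Cre-positive arrays, against 7.42, 7.59 and 7.41 in Cre-negative arrays. The groups did not overlap, but Cre-positive replicate 3 lay only just below the Cre-negative arrays. The difference was -0.57 ± 0.16 (limma adjusted p = 0.0365). A dimmer Sfrp2 probe set gave -0.11. The call was lost without any single array other than Cre-positive replicate 3 (differences of -0.73 to -0.41 over all 6 omissions, largest limma adjusted p = 0.115), without both replicates 2 and with the sex term.

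Sfrp1 (probe set 17500068), of the same family, stood at 8.98, 9.59 and 10.25 in Cre-positive arrays, against 10.51, 10.36 and 10.18 in Cre-negative arrays. Cre-positive replicate 3 overlapped the Cre-negative arrays and the other two lay below them. The difference of -0.74 ± 0.28 did not pass (limma adjusted p = 0.102). It passed in only 1 of 14 alternatives, that without Cre-positive replicate 3, where it was -1.06 (limma adjusted p = 0.0104). It was -0.58 with the sex term and -0.73 without both replicates 2.

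Wif1 (probe set 17237701), which binds Wnts outside the cell, stood at 5.29, 5.27 and 5.28 in Cre-positive arrays, against 6.02, 5.56 and 5.91 in Cre-negative arrays. The Cre-positive values were nearly equal and all lay below the Cre-negative ones. They were also under 5.5, the level used below for dim members, where RMA compresses differences. The difference was -0.55 ± 0.13 (limma adjusted p = 0.017). The call was lost without Cre-negative replicate 1, Cre-negative replicate 3 or Cre-positive replicate 2 (largest limma adjusted p = 0.0618), and with the sex term (limma adjusted p = 0.0866), and held without both replicates 2 (-0.68, limma adjusted p = 0.0274).

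Dkk3 (probe set 17495191) rose. It encodes a divergent Dickkopf protein that stressed tubular epithelium of mouse kidney is known to secrete. Dkk3 was grouped with the inhibitors by family name, and its effect on the signal was not tested. It stood at 8.23, 8.43 and 8.76 in Cre-positive arrays, against 7.41, 7.50 and 7.17 in Cre-negative arrays. Every Cre-positive value lay well above every Cre-negative value, and the Cre-positive level was 2.17 times the Cre-negative level. The difference was 1.12 ± 0.15 (limma adjusted p = 0.00183), and its call was kept under all 14 alternatives run, with differences of 0.97 to 1.31. The remaining 4 inhibitors, Dkk1, Dkk4, Sfrp4 and Sfrp5, had differences of -0.20 for Sfrp4 to 0.15 for Dkk1 and did not pass.

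**Figure D2:**
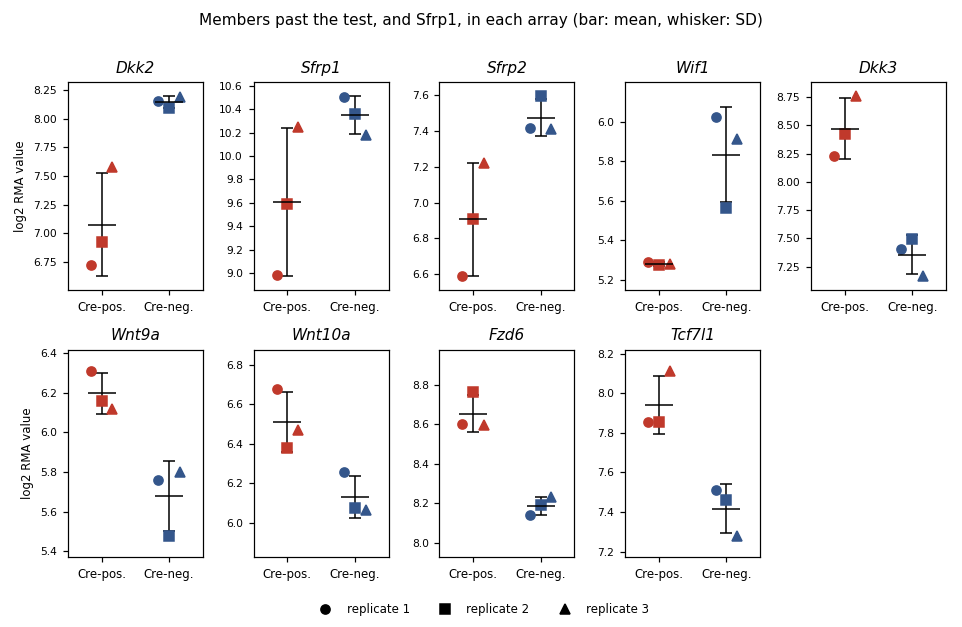
Log2 RMA value (vertical axis, scaled for each gene) of the 8 called members and Sfrp1 in the 3 Cre-positive (red) and 3 Cre-negative (blue) arrays. Circles, squares and triangles are replicates 1, 2 and 3, bars are means and whiskers SD. Dkk2, Sfrp1 and Sfrp2 are lowest in Cre-positive replicate 1 and nearest to the Cre-negative arrays in replicate 3.

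Among the Cre-positive arrays, replicate 1 was lowest and replicate 3 highest for Dkk2, Sfrp1, Sfrp2 and Dkk3, and likewise for the Frizzled genes Fzd1 (7.99, 8.23 and 8.66 in replicates 1 to 3) and Fzd2 (5.15, 5.44 and 6.13). This order was seen in 11 of the 55 members, or 20.0%, against 19.7% of all tested genes. Marker lists of other kidney cells differed between these arrays too, but not all in this order. Macrophage and podocyte sums were lowest in replicate 1 and highest in replicate 3. Principal cell sums were 13.15, 12.95 and 12.73 in replicates 1 to 3. Thick ascending limb and distal tubule sums were 14.03, 14.01 and 13.79. Endothelial and proximal tubule sums were lowest in replicate 2. Ranges below run from the lowest array to the highest. Of all tested genes 21.8% were called. The summed level of the 11 interstitial fibroblast and pericyte markers was 13.21, 13.62 and 14.07 in Cre-positive arrays, against 12.76, 12.70 and 12.73 in Cre-negative arrays. 7 of the 11 rose, among them the collagen genes Col1a1 (1.49 ± 0.22) and Col3a1 (1.06 ± 0.23), and 1 of these calls held with the sex term and 1 without both replicates 2. Macrophage markers ran from 11.54 to 12.55 in Cre-positive arrays, against 10.52 to 10.64 in Cre-negative arrays, and 6 of 8 rose, 5 also with the sex term and 5 without both replicates 2. Endothelial markers ran from 12.66 to 13.12 in Cre-positive arrays, against 13.21 to 13.28 in Cre-negative arrays, and 4 of 10 fell, with 1 call kept in each of these settings. Proximal tubule markers ran from 14.20 to 14.37 in Cre-positive arrays, against 15.45 to 15.53 in Cre-negative arrays, and 9 of 10 fell, with 9 calls kept with the sex term and 8 without both replicates 2. Podocyte markers ran from 9.92 to 10.25 in Cre-positive arrays, against 11.01 to 11.27 in Cre-negative arrays, and 4 of 5 fell, with 3 calls kept in each of these settings. Thick ascending limb and distal tubule markers ran from 13.79 to 14.03 in Cre-positive arrays, against 14.48 to 14.65 in Cre-negative arrays, and of 8 markers 5 fell and 1 rose, with 1 call kept with the sex term and 3 without both replicates 2. Principal cell markers of the collecting duct ran from 12.73 to 13.15 in Cre-positive arrays, against 12.45 to 12.71 in Cre-negative arrays, and 4 of 10 rose, with 2 and 0 calls kept in limma with the sex term and without both replicates 2. T and B lymphocyte markers summed to 8.25, 9.15 and 9.51 in Cre-positive arrays, against 8.39 to 8.61 in Cre-negative arrays, and 0 of 7 were called. Proliferating cell markers ran from 8.92 to 9.86 in Cre-positive arrays, against 9.14 to 9.75 in Cre-negative arrays, and 0 of 5 were called. No marker is at a true 0 on the RMA scale. In whole-kidney RNA fewer cells of a type and less RNA per cell cannot be told apart, and the part of these cell types in the Wnt results was not tested.

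Of 19 Wnt ligands, 2 rose (10.5%) and 17 did not pass, where 21.8% of all tested genes were called. Wnt9a (probe set 17250215) stood at 6.31, 6.16 and 6.12 in Cre-positive arrays, against 5.76, 5.48 and 5.80 in Cre-negative arrays. The 3 Cre-positive values were the higher ones, with a difference of 0.52 ± 0.11 (limma adjusted p = 0.0141). It was 0.40 with the sex term (limma adjusted p = 0.188) and 0.44 without both replicates 2 (limma adjusted p = 0.103), and passed in neither. Wnt10a (probe set 17214387) stood at 6.68, 6.38 and 6.47 in Cre-positive arrays, against 6.26, 6.08 and 6.06 in Cre-negative arrays. Its groups did not overlap either, with a difference of 0.38 ± 0.11 (limma adjusted p = 0.0411). This call lay close to the threshold and was kept in only 4 of 13 alternatives. It was lost under median centring, under a second quantile normalization, with the sex term, without both replicates 2 and without any single array other than Cre-positive replicate 2.

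The ligands best known from kidney development did not pass. Wnt4 stood at 6.97, 6.90 and 6.80 in Cre-positive arrays, against 6.42, 6.89 and 6.61 in Cre-negative arrays, a difference of 0.25 ± 0.13 (95% interval -0.04 to 0.55, limma adjusted p = 0.216). Only Cre-negative replicate 2, the array with adrenal transcripts, reached into the Cre-positive range, and without both replicates 2 the difference was 0.37 (limma adjusted p = 0.172). Wnt7b stood at 6.61, 6.90 and 6.73 in Cre-positive arrays, against 6.57, 6.73 and 6.58 in Cre-negative arrays, with overlapping groups and a 95% interval of -0.12 to 0.36 for the difference. Without both replicates 2 this difference was 0.10. Wnt9b stood at 6.45, 6.78 and 6.38 in Cre-positive arrays, against 6.65, 6.73 and 6.73 in Cre-negative arrays. The groups again overlapped, with a difference of -0.17 and a 95% interval of -0.44 to 0.10. Only Cre-positive replicate 2, the array with muscle transcripts, did not lie below the Cre-negative arrays. Without both replicates 2 the Wnt9b difference was -0.28 (limma adjusted p = 0.228). Wnt11 stood at 6.49, 6.47 and 6.54 in Cre-positive arrays, against 6.67, 6.67 and 6.59 in Cre-negative arrays. These groups did not overlap but were close, with a difference of -0.14 ± 0.08 (limma adjusted p = 0.26).

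Among the other ligands the differences that did not pass ran from -0.24 for Wnt2 to 0.36 for Wnt2b. Many ligands were dim: 8 of the 19, and 13 of the 55 members, stayed under 5.5 in every array, where transcripts absent for reasons of sex read 3.66 to 4.54, taken from Y-linked genes in the arrays with Xist and from Xist in the others. Wnt3 and Fzd10 exceeded 4.54 in no array. RMA compresses differences of dim probe sets, and levels of different probe sets are not on one scale.

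Of 10 Frizzled receptors, 1 rose (10%), where 21.8% of all tested genes were called. Fzd6 (probe set 17311179), a receptor known for planar cell polarity in mouse skin, stood at 8.60, 8.76 and 8.60 in Cre-positive arrays, against 8.14, 8.19 and 8.23 in Cre-negative arrays. The groups were clearly apart, with a difference of 0.47 ± 0.09 (limma adjusted p = 0.00734), or 38.1% more transcript. It was 0.42 with the sex term (limma adjusted p = 0.102) and 0.41 without both replicates 2 (limma adjusted p = 0.0951). The groups also did not overlap for Fzd4 (0.21 ± 0.10), a receptor of vascular endothelium, Fzd7 (0.25 ± 0.10) and Fzd8 (-0.20 ± 0.08), none of which passed (Fzd4 and Fzd8 each passed in 1 alternative). The other 6 Frizzled genes did not pass either, with differences of -0.17 for Fzd3 to 0.26 for Fzd2. Neither co-receptor passed: Lrp5 differed by 0.02 ± 0.08 (95% interval -0.17 to 0.22) and Lrp6 by -0.03 ± 0.10 (95% interval -0.25 to 0.19).

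On the R-spondin side limma called 0 of 8 genes, where 21.8% of all tested genes were called. At an unadjusted limma p under 0.05, which 33.4% of all tested genes reached, 1 of the 8, Lgr4, was lower. The ligands Rspo1, Rspo2, Rspo3 and Rspo4 had differences of -0.09 to 0.23. Their receptor Lgr4 stood at 11.09, 10.85 and 10.97 in Cre-positive arrays, against 11.34, 11.18 and 11.14 in Cre-negative arrays, without overlap (-0.24 ± 0.10, limma adjusted p = 0.129). Lgr5, a receptor and Wnt target, stood at 5.17, 5.05 and 5.39 in Cre-positive arrays, against 5.42, 6.17 and 5.21 in Cre-negative arrays. Its high value was that of Cre-negative replicate 2, and without both replicates 2 the difference of -0.40 ± 0.23 became -0.03. A second, dimmer Lgr5 probe set stood at 4.47, 4.74 and 4.46 in Cre-positive arrays, against 4.89, 4.78 and 4.94 in Cre-negative arrays. There the groups did not overlap, and the difference of -0.32 was -0.46 without both replicates 2. The ligases Rnf43 and Znrf3, which are also targets of the pathway, overlapped between groups. Rnf43 stood at 7.67, 7.33 and 7.35 in Cre-positive arrays, against 7.21, 7.37 and 6.96 in Cre-negative arrays (0.27 ± 0.14). Only Cre-negative replicate 2 reached into the Cre-positive range. The Rnf43 difference was 0.42 without both replicates 2 and 0.49 with the sex term, and it passed in 0 of 14 alternatives. Znrf3 stood at 8.64, 8.41 and 8.35 in Cre-positive arrays, against 8.48, 8.50 and 8.29 in Cre-negative arrays (0.05 ± 0.11).

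Inside the cell, the TCF/LEF factor Tcf7l1 (probe set 17467806), best known as a repressor, rose. It stood at 7.85, 7.86 and 8.11 in Cre-positive arrays, against 7.51, 7.46 and 7.28 in Cre-negative arrays, without overlap. The difference was 0.52 ± 0.11 (limma adjusted p = 0.012). With the sex term, against Cre-negative replicate 3 alone, it was 0.66 and passed (limma adjusted p = 0.0411), and it did not pass without both replicates 2 (0.59, limma adjusted p = 0.0779). Tcf7l2 stood at 8.20, 8.25 and 8.15 in Cre-positive arrays, against 7.83, 7.97 and 8.00 in Cre-negative arrays, apart but not past the threshold (0.27 ± 0.09, limma adjusted p = 0.0624), though it passed in 2 of 14 alternatives. Lef1, a factor and a feedback target, stood at 6.20, 6.51 and 6.36 in Cre-positive arrays, against 6.37, 6.35 and 6.34 in Cre-negative arrays. Its group means were equal to 2 decimals, with a 95% interval of -0.23 to 0.23.

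Axin2, a scaffold of the destruction complex that beta-catenin itself induces, stood at 6.35, 6.32 and 6.38 in Cre-positive arrays, against 6.00, 6.14 and 6.14 in Cre-negative arrays. All Cre-positive values were higher, but the difference of 0.26 ± 0.08 missed the threshold (limma adjusted p = 0.0626) and passed in none of 13 alternatives (limma adjusted p = 0.0950 to 0.384). A second, dimmer Axin2 probe set stood at 5.48, 5.84 and 5.07 in Cre-positive arrays, against 5.22, 5.07 and 5.27 in Cre-negative arrays. These groups overlapped, Cre-positive replicate 3 was the lowest of the 6 and the array with muscle transcripts the highest, and the difference of 0.27 was 0.03 without both replicates 2. Axin1 (0.06 ± 0.09) and Apc (0.11 ± 0.09), the other members of the complex, did not pass.

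**Figure D3:**
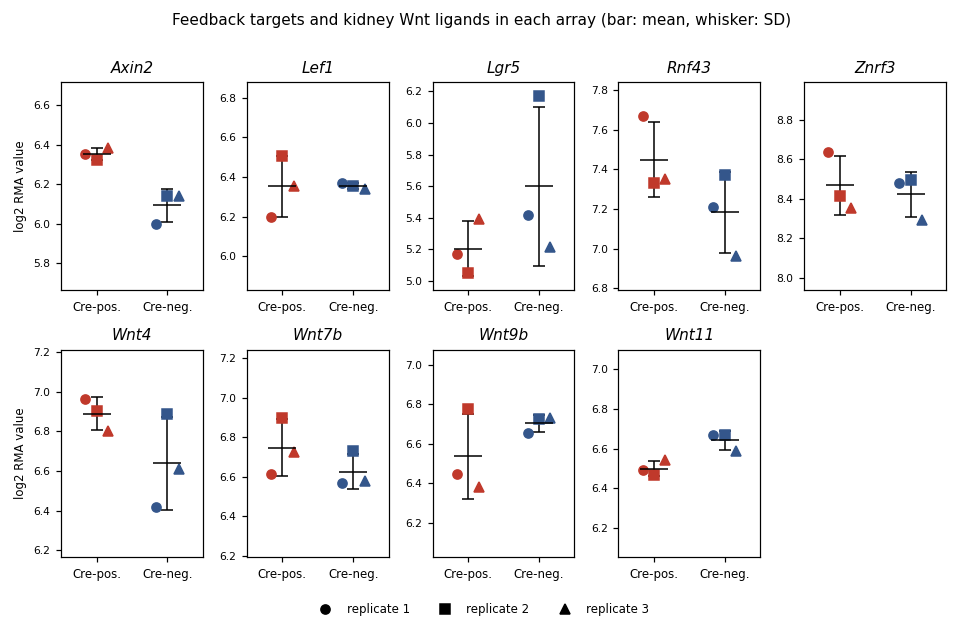
Log2 RMA value (vertical axis, scaled for each gene) of the feedback targets Axin2, Lef1, Lgr5, Rnf43 and Znrf3 and the ligands Wnt4, Wnt7b, Wnt9b and Wnt11 in the 3 Cre-positive (red) and 3 Cre-negative (blue) arrays. Symbols mark replicates 1 to 3, bars are means and whiskers SD. None of these 9 genes passed; the groups are apart for Axin2 and Wnt11 only, and the high Lgr5 and Wnt4 values among Cre-negative arrays are those of replicate 2.

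Promoter sequence is shown for the 5 called members that have an entry in the RefSeq table (GRCm38.p6), so that genes that fell can be set beside genes that rose. Each line holds the 250 bases before the annotated start, 5′ to 3′ on the strand of the gene, with CG dinucleotides in capitals. Dkk2 lies on chr3:132085042-132085291 (+ strand), Sfrp2 on chr3:83766071-83766320 (+), Wif1 on chr10:121033754-121034003 (+), Tcf7l1 on chr6:72789046-72789295 (- strand) and Wnt9a on chr11:59306680-59306929 (+).
Dkk2: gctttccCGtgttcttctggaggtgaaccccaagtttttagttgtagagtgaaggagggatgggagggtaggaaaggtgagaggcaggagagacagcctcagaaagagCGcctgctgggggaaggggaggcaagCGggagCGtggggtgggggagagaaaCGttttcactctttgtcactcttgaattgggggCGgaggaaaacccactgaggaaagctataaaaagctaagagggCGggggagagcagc
Sfrp2: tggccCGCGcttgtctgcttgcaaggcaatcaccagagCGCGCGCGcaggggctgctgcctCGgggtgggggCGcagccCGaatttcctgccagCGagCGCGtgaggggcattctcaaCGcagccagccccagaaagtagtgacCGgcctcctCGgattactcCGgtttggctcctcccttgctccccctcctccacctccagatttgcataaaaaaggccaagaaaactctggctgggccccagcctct
Wif1: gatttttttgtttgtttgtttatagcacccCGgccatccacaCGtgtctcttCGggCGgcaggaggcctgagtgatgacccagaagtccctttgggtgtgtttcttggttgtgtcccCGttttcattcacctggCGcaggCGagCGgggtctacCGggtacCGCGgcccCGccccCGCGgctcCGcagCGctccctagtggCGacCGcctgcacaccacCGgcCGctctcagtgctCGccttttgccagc
Tcf7l1: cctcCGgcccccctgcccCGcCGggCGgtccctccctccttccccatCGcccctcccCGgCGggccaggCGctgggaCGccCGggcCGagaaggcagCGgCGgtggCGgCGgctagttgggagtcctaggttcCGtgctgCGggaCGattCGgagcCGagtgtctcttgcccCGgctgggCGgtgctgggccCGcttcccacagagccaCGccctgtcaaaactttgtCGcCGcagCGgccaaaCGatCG
Wnt9a: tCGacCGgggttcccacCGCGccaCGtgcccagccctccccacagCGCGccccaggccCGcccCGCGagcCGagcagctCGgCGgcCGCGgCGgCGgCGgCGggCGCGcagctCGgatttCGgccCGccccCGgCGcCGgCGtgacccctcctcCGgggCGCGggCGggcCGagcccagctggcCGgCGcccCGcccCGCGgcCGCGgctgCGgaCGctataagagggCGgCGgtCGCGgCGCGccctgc
The 3 windows of genes that fell held 7 (Dkk2), 16 (Sfrp2) and 21 (Wif1) CG dinucleotides, and those of the genes that rose held 29 (Tcf7l1) and 48 (Wnt9a). The median was 20.5 over 42 windows of 34 members, which held 2 to 48, and 6 over all 32851 windows. The called members without an entry, Dkk3, Fzd6 and Wnt10a, all rose. With 5 windows a difference between genes that fell and genes that rose cannot be judged. GC content was 55.6% for Dkk2 and 84.4% for Wnt9a, with medians of 66.6% over members and 52.4% over all windows. The TCF/LEF words CTTTGAA and CTTTGAT and the words CTTTGTA and CTTTGTT were searched on both strands, and their matches were counted together. None of the 5 windows held one. Of the member windows 14.3% did, as did 14.8% of all windows. A word in such a window is a description of its letters and not a binding site.

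Genes of the pathway outside the members were taken from 4 lists. Of 24 measured secreted and membrane modulators, 4 rose and 1 fell (20.8%, against 21.8% of all tested genes, median 0.05). The rises were in the glypicans Gpc3 (1.52 ± 0.17), 2.87 times the Cre-negative level, and Gpc6 (0.89 ± 0.19), the membrane protein Tpbg (0.88 ± 0.10), known from zebrafish as an inhibitor of LRP6 signalling, and the Frizzled-4 ligand Ndp (0.55 ± 0.13). The glypican Gpc4 fell (-0.37 ± 0.10). Wls, the carrier of Wnts to the cell surface, differed by 0.00 ± 0.09, and Porcn, which attaches their lipid, by 0.08 ± 0.12. The calls of Gpc3 and Tpbg held with the sex term and without both replicates 2.

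Of 39 measured intracellular components, 5 rose and 4 fell (23.1%, against 21.8% of all tested genes, median 0.09). Those that rose were the casein kinase Csnk1e (0.94 ± 0.09), the Groucho co-repressors Tle3 (0.54 ± 0.08) and Tle1 (0.46 ± 0.13), the Dishevelled gene Dvl2 (0.39 ± 0.09) and the beta-catenin co-factor Bcl9l (0.29 ± 0.08). Those that fell were the beta-catenin antagonists Cby1 (-0.55 ± 0.12) and Ctnnbip1 (-0.46 ± 0.09), the F-box protein Btrc (-0.47 ± 0.09), which targets beta-catenin for destruction, and the phosphatase subunit Ppp2r5a (-0.35 ± 0.10). Ctnnb1, which encodes beta-catenin, differed by 0.04 ± 0.08 and Gsk3b by 0.16 ± 0.09, and neither passed. Of these 9 calls, 3 held with the sex term and 1, that of Csnk1e, without both replicates 2.

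Of 38 measured genes of planar polarity and of signalling apart from beta-catenin, 7 rose and 4 fell (28.9%, median 0.09). Of all tested genes 21.8% were called. The largest rise was that of Ankrd6 (0.95 ± 0.10), which encodes diversin, followed by the calcium-responsive factors Nfatc4 (0.68 ± 0.08) and Nfatc1 (0.67 ± 0.08), the Wnt co-receptor Ptk7 (0.54 ± 0.10) and the polarity genes Prickle2 (0.54 ± 0.10) and Prickle3 (0.47 ± 0.10). The planar polarity effectors Fuz (-0.64 ± 0.08) and Wdpcp (-0.54 ± 0.09), the cadherin Celsr2 (-0.39 ± 0.11) and the kinase Mapk9 (-0.39 ± 0.09) fell. Ror1, Ror2, Ryk, Vangl1 and Vangl2 did not pass, with differences of -0.02 for Ror2 to 0.24 for Vangl2. Of these 11 calls, 5 held with the sex term and 7 without both replicates 2.

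Of 36 measured genes (Notum is also among the 24 modulators) that are described as beta-catenin targets in other tissues, 14 rose and 1 fell (41.7%, median 0.18). Over all tested genes 21.8% were called and the median was -0.01. Mmp7, a metalloproteinase, stood at 8.77, 7.47 and 7.76 in Cre-positive arrays, against 5.19, 5.32 and 4.96 in Cre-negative arrays, far apart, with a difference of 2.84 ± 0.30 (limma adjusted p = 0.000679). Cd44, a hyaluronan receptor (2.29 ± 0.18), the transcription factors Sox9 (2.07 ± 0.11) and Myc (1.98 ± 0.12) and the urokinase receptor Plaur (1.56 ± 0.10) rose as well. These genes respond to injury and to other pathways too, and the list was chosen with earlier results of these data known. Nkd2, a Dishevelled-binding antagonist, stood at 7.07, 7.48 and 8.88 in Cre-positive arrays, against 6.22, 5.96 and 6.15 in Cre-negative arrays. Cre-positive replicate 3 was highest, as for the summed level of the interstitial markers though not for Col1a1 and Col3a1, which were highest in replicate 2, and the difference was 1.70 ± 0.40 (limma adjusted p = 0.0202). The call of Nkd2 was lost with the sex term (limma adjusted p = 0.153) and without both replicates 2 (limma adjusted p = 0.113). Vegfa fell (-0.76 ± 0.10). Other targets of the pathway did not pass: Nkd1 differed by 0.33 ± 0.21, Sp5 by -0.09 ± 0.10, Notum by -0.64 ± 0.19 (limma adjusted p = 0.0514) and Ccnd1 by -0.65 ± 0.21. Of the 15 calls, 12 held with the sex term and 11 without both replicates 2.

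**Figure D4:**
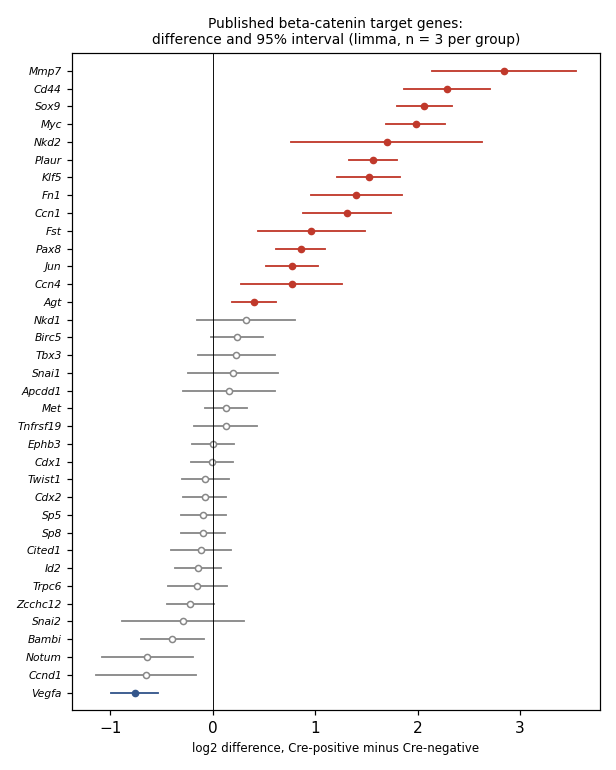
Log2 difference, Cre-positive minus Cre-negative (horizontal axis), of 36 genes described as beta-catenin targets, in order of the difference. Points are limma estimates and lines their 95% intervals, n = 3 arrays per group; red marks the 14 that rose, blue the 1 that fell and open grey those that did not pass. Mmp7, Cd44, Sox9 and Myc are at the upper end, while Nkd1, Sp5 and Notum did not pass.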

How the data were processed

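Total RNA of 6 mouse kidney samples was hybridised to 1 Affymetrix array each after the manufacturer's WT Plus labelling, per the labels' protocols. Deposited by the authors was a single table with log2 values of 1.89 to 13.6, for which the submitters' processing notes name RMA and Partek without versions. As a method, RMA subtracts background, equalises the distributions of arrays by quantiles and gives 1 value per probe set, which compresses dim signals. The build is not given in the sources used, and 0 columns belonged to other samples.

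The table held 41345 rows: 23521 with exactly 1 gene symbol in GEO's platform annotation, 1814 with several and 16010 with none. Only the first kind was used. 23328 of them matched a RefSeq gene (GRCm38.p6) by Entrez ID, and 0 symbols needed updating. Where rows shared a symbol, only that of highest mean over the 6 arrays was kept, which left 22180 genes; 4 members had several rows. There was no filter on low values.

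The comparison used limma 3.58.1 under R 4.3.3 (lmFit, eBayes, no covariate, two-sided), with adjustment over all 22180 genes. Members past the threshold are named, with values for each array where the difference was 0.5 or more or where the gene is a feedback target or a kidney Wnt ligand. Array values of the other called members, Sfrp1, Tcf7l2, Lgr4, Fzd1, Fzd2, Mmp7 and Nkd2, and the names of list genes that did not pass, were added after their values were seen. In each pathway list up to 6 called genes per direction are named. The members and lists were chosen with earlier results of these data known. The fit was tested on simulated data, in which far fewer genes were changed than were called here. Of 100 genes with a log2 change of 0.5, 31% were called. Of 50 genes each, 94% were called at 1.0 and 100% at 2.0.

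Same-numbered samples of the 2 groups did not deviate together, so the numbers were not used as pairs. 14 alternatives were run. Tables and figures used Python 3.11.15, pandas 2.3.3 and matplotlib 3.10.9.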

Additional observations from a re-analysis of the deposited data

How the results depend on the processing

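With the sex term limma called 2030 of all tested genes, 2 members higher and 0 lower. Before adjustment, 10 and 3 members had a p under 0.05, as did 23.8% of all tested genes. Without both replicates 2 it called 1853 genes, 1 member higher and 1 lower. In both settings fewer degrees of freedom remained, and the cause of the lost calls was not tested further. Leaving out 1 array at a time gave 3141 to 4885 genes, 4 to 5 members higher and 1 to 4 lower. The lower count was 1 without Cre-negative replicate 1, without Cre-negative replicate 3 and without Cre-positive replicate 2, and the count over all genes was 3141 without Cre-negative replicate 1. Of the 8 member calls, 7 were kept after quantile normalization was applied again, 7 after centring arrays on their medians, 8 with a trended and robust eBayes, 8 when rows of a gene were averaged and 5 when only genes above the median level were tested. The last setting removed Wnt9a, Wnt10a and Wif1 from the test. Members called only in such settings were Fzd4 after the repeated quantile normalization, Tcf7l2 with the trended and robust eBayes, and Fzd8 and Tcf7l2 among genes above the median level. No called member changed direction in any alternative in which it was tested. The groups of these members did not overlap, so leaving out arrays or adding the sex term could not reverse them. With the replicate number as a block limma called 3977 genes, 5 members higher and 3 lower, the same 8 as without it. Deviations of same-numbered arrays from their group means correlated at -0.04 to 0.03, so the block is no pairing. The number of arrays limits precision.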
